A study of Drosophila melanogaster with 12 samples.

Results

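The cytosolic chaperonin CCT, also called TRiC, was measured here through the transcripts of its 8 subunits, CCT1 to CCT8, in fly heads during a thermocycle and on the following day without one. Probe sets were taken as members where their only gene symbol, brought up to date through its Entrez identifier, was CCT1, CCT2, CCT3, CCT4, CCT5, CCT6, CCT7 or CCT8. This gave 9 probe sets of 13966 tested, and 8 genes of the 10843 genes with a probe set of a single symbol. CCT2 was represented by a brighter and a dimmer probe set, and each other subunit by a single one. The subunits correspond to the fly loci CG5374 (CCT1), CG7033 (CCT2), CG8977 (CCT3), CG5525 (CCT4), CG8439 (CCT5), CG8231 (CCT6), CG8351 (CCT7) and CG8258 (CCT8).

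CCT is a barrel of stacked rings in which each ring holds one copy of every subunit. It binds unfolded proteins in its cavity and uses ATP to close over them and fold them. Actin, tubulin and several WD-repeat proteins depend on it, prefoldin hands nascent chains to it, and phosducin-like proteins act as its co-factors. The subunits are related in sequence but bind ATP and clients differently, and a working complex needs all of them.

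All flies were y w; tim01 adults, which lack a functional timeless gene and with it the molecular clock, and they were kept in darkness throughout. The first day (CA) was a thermocycle, 12 h at 18 °C and then 12 h at 25 °C, and the second day (AA) was held at 25 °C. Heads were collected at 2, 6, 10, 14, 18 and 22 h of each day, and each collection was hybridised to 1 Affymetrix Drosophila array. The 12 arrays fell into 4 groups of 3. These were the CA cold phase (2, 6 and 10 h, 18 °C), the CA warm phase (14, 18 and 22 h, 25 °C), and the AA subjective cold and subjective warm phases, which covered the same hours at 25 °C. No array repeated another time point, so the spread within a group holds change within the phase as well as noise. The labels do not say that the collections came from separate cultures, and p values measure only the spread between these arrays. Sieved heads are a mixture of tissues, in which fewer cells of a type and less RNA per cell cannot be told apart.

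Values are log2 signals, on which a difference of 1 is a doubling. The arrays had nearly equal medians, from 5.18 to 5.22, and the number of arrays, not a sequencing depth, limits the precision. Because the arrays had been quantile normalized, a shift common to the bulk of transcripts would not be visible. The CA 18-h array stood apart from the others. Its correlation with other arrays over all tested probe sets was 0.980 to 0.990. Its hybridisation spikes averaged 7.91 against 8.65 to 9.13 on the other arrays. Its actin 3′ minus 5′ signal difference was 0.82, the lowest of a range that reached 1.85, although AA 2 h was nearly as low at 0.87. The GAPDH difference was also lowest there, at 2.01. The eIF-4a difference was 2.21, 2.17 and 2.81 on the CA cold arrays and 2.32, 1.42 and 1.56 on the CA warm arrays, in order of time. Its lowest values over all arrays were at CA 18 h and CA 22 h, and its highest at CA 10 h. The bearing of these control differences on the CCT values was not tested. All 9 CCT probe sets were above the 20th percentile of the array, which lay at 3.67 to 3.75, on all 12 arrays. The CCT7 probe set came closest to that limit. Photoreceptor markers, of which 4 of 10 listed genes were on the array, averaged 10.45 to 10.78 over the arrays, so the eye tissue of the labelled heads was well represented on each.

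During the thermocycle the CCT subunits were lower in the cold than in the warm phase. All 9 probe sets had a lower mean at 18 °C, by 0.18 to 0.42 on the log2 scale, or 1.13-fold to 1.34-fold, and each reached its lowest value of the 12 arrays at CA 6 h or CA 10 h. On the next day at constant 25 °C the same hours showed no common direction, with 6 probe sets lower and 3 higher in the subjective cold phase. None of these differences passed an adjusted p of 0.05 for any single subunit. The plot of the 9 probe sets by time of day shows the profiles.

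**Figure D1:**
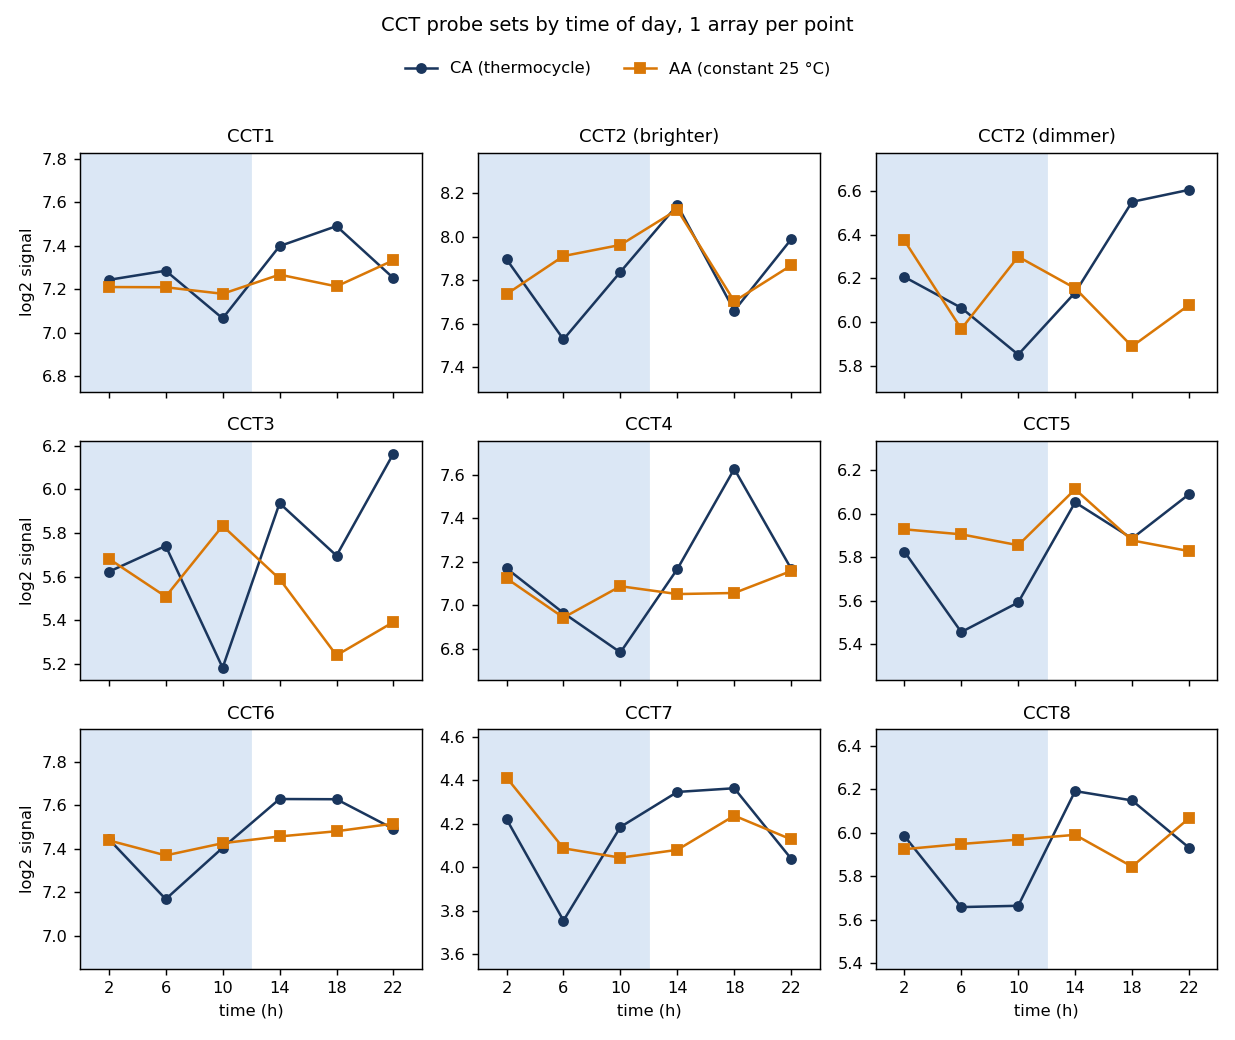
Log2 signal of the 9 CCT probe sets against time of day, with 1 array per point, circles for the CA thermocycle day and squares for the AA day at 25 °C. Shading marks the hours that were at 18 °C on the CA day alone. All panels span the same height of 1.1 log2 units. The lowest point of each panel is a CA point at 6 h or at 10 h.

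The subunits CCT1, CCT2, CCT4 and CCT5 lie together on one side of the ring, the side that binds ATP more tightly in yeast. CCT1, known as TCP1 in mammals, is the founding member of the family. Its log2 signals on the CA arrays at 2, 6, 10, 14, 18 and 22 h were 7.24, 7.29, 7.07, 7.40, 7.49 and 7.25. At the same hours of the AA day they were 7.21, 7.21, 7.18, 7.27, 7.21 and 7.33. The lowest signal was that of CA 10 h and the highest that of CA 18 h, and the cold and warm CA arrays overlapped because CA 6 h exceeded CA 22 h. Its mean was 7.20 ± 0.12 (SD, n = 3) in the CA cold and 7.38 ± 0.12 (SD, n = 3) in the CA warm phase.

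CCT2, whose human counterpart is mutated in a retinal dystrophy, gave different profiles with its 2 probe sets. Signals of the brighter probe set were 7.90, 7.53, 7.84, 8.15, 7.66 and 7.99 on the CA day, and 7.74, 7.91, 7.96, 8.12, 7.70 and 7.87 on the AA arrays. Those of the dimmer probe set were 6.21, 6.07, 5.85, 6.14, 6.55 and 6.61 on the CA arrays, and 6.38, 5.97, 6.30, 6.16, 5.89 and 6.08 on the AA arrays. The brighter probe set was high at 14 h on both days and low at 18 h on both days, whereas the dimmer one was high at CA 18 h and CA 22 h. For both, the cold and warm CA arrays overlapped. Over the 12 arrays the profiles of the 2 probe sets were barely related, with Pearson r = 0.06 (permutation p = 0.852) and Spearman rho = 0.21. The transcript of CCT2 is therefore given by probe set throughout, and the brighter one stands for the gene in the correlations.

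CCT4 contacts actin in the mammalian complex. Its signals were 7.17, 6.96, 6.78, 7.17, 7.63 and 7.17 on the CA arrays and 7.12, 6.94, 7.09, 7.05, 7.06 and 7.16 on the AA arrays. The CA 18-h array alone stood well above the rest, and CA 10 h alone well below. Arrays of the cold and warm CA phases overlapped narrowly, since CA 2 h was level with CA 14 h and CA 22 h.

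CCT5, in which a human mutation causes a sensory neuropathy, separated the phases most clearly. Its signals were 5.83, 5.46, 5.59, 6.05, 5.89 and 6.09 at the 6 CA times, and 5.93, 5.91, 5.86, 6.11, 5.88 and 5.83 at the AA times. All 3 arrays at 18 °C lay below all 9 arrays at 25 °C, although CA 2 h (5.827) and AA 22 h (5.829) nearly touched. CCT5 was the only member with this separation, which 0.773% of all tested probe sets showed. The means were 5.63 ± 0.19 (SD, n = 3) in the CA cold and 6.01 ± 0.11 (SD, n = 3) in the CA warm phase.

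The subunits CCT3, CCT6, CCT7 and CCT8 form the other side of the ring, which binds ATP more weakly in yeast. CCT3 gave 5.62, 5.74, 5.18, 5.94, 5.70 and 6.17 on the CA arrays, and 5.68, 5.51, 5.83, 5.59, 5.24 and 5.39 on the AA arrays. It had the widest range of the members, 0.98, and its days differed most: the CA warm arrays were all above the AA subjective warm arrays, and CA 10 h was below every AA array. Cold and warm CA arrays overlapped, since CA 6 h was above CA 18 h.

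CCT6, which has an additional testis-biased paralogue in mammals, gave 7.44, 7.17, 7.40, 7.63, 7.63 and 7.49 on the CA arrays. On the AA day it stayed between 7.37 (6 h) and 7.52 (22 h). All 3 CA cold arrays were below all 3 CA warm arrays, with means of 7.34 ± 0.15 (SD, n = 3) and 7.58 ± 0.08 (SD, n = 3). CCT5 and CCT6 were the 2 members whose CA phases did not overlap, a pattern that 5.53% of all tested probe sets showed in this direction.

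CCT7 gave 4.22, 3.76, 4.19, 4.35, 4.36 and 4.04 on the CA arrays and 4.41, 4.09, 4.04, 4.08, 4.24 and 4.13 on the AA arrays. Only the CA 6-h array was below 4.0, and the highest value belonged to AA 2 h. The CA phases overlapped, with CA 22 h below both CA 2 h and CA 10 h.

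CCT8, which promotes assembly of the whole complex in Caenorhabditis elegans, gave 5.99, 5.66, 5.67, 6.19, 6.15 and 5.93 on the CA arrays. The AA arrays, at 5.85 to 6.07, lay within these limits. CA 6 h and CA 10 h were below every AA array, and CA 14 h and CA 18 h above every AA array. The CA phases overlapped through CA 2 h, which was higher than CA 22 h. The means were 5.77 ± 0.19 (SD, n = 3) in the cold and 6.09 ± 0.14 (SD, n = 3) in the warm phase.

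Read by array instead of by gene, the low values were concentrated in the middle and the end of the cold phase. Relative to each probe set's own mean over 12 arrays, the median of the 9 probe sets was -0.29 at CA 6 h (7 of 9 below their mean) and -0.28 at CA 10 h (8 of 9 below). The first cold array, CA 2 h, was also at 18 °C but was not low, with a median of 0.03 and 5 of 9 above. In the warm phase the medians were 0.18 at CA 14 h and 0.20 at CA 18 h, each with 8 of 9 above, and 0.06 at CA 22 h with 6 of 9 above. On the 6 AA arrays the medians stayed between -0.07 and 0.02. For comparison, the median over all tested probe sets lay within -0.02 and 0.03 on every array. The share of all tested probe sets below their own mean was 51.1%, 49.8% and 58.2% on the CA cold arrays, in order of time. On the CA warm arrays it was 52.1%, 41.8% and 58.0%.

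**Figure D2:**
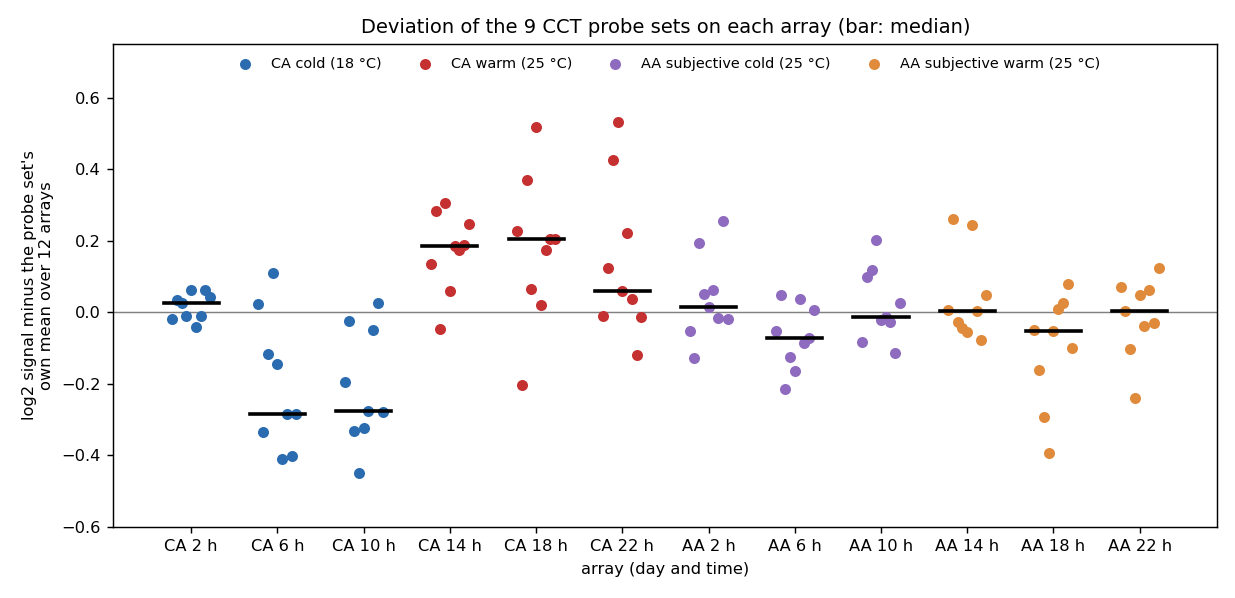
Deviation of the 9 CCT probe sets from their own mean over 12 arrays, in log2 units, for each array in order of day and time. Points are probe sets, black bars medians and colours the 4 groups. The medians of CA 6 h (-0.29) and CA 10 h (-0.28) lie below all others, and that of CA 2 h (0.03) does not.

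The minimum of 5 probe sets (CCT2 brighter, CCT5, CCT6, CCT7 and CCT8) fell at CA 6 h and that of the other 4 (CCT1, CCT2 dimmer, CCT3 and CCT4) at CA 10 h. Among all tested probe sets, 18.0% had their lowest value on one of these 2 arrays and 23.1% on one of the 3 arrays at 18 °C. Without the CA 10-h array, 5 of 9 CCT probe sets had their minimum at 18 °C, and without the CA 6-h array 6 of 9 did. All 9 did so without the CA 18-h array. The CA warm mean was the highest of the 4 group means for all 9 probe sets, against 32.3% of all tested probe sets, and the CA cold mean the lowest for 7, against 25.4%. Both held for 7 of 9, against 10.1% of all tested probe sets, and the exceptions were CCT3 and the dimmer CCT2 probe set.

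The CA phases differ in temperature and in hour, which cannot be told apart within the CA day, so the same hours of the AA day are given after them. In the limma fit across all probe sets, the CA cold minus CA warm difference of CCT5 was -0.38 (SE 0.10), a 1.31-fold lower signal in the cold, with an adjusted p of 0.341. That of CCT8 was -0.32 (SE 0.10, adjusted p = 0.417) and that of CCT6 was -0.24 (SE 0.08, adjusted p = 0.467). The largest difference belonged to CCT3, at -0.42 (SE 0.15, adjusted p = 0.533), whose arrays also scattered most. The estimate for CCT4 was -0.35 (SE 0.12, adjusted p = 0.515). For CCT1 the difference was -0.18 (SE 0.08, adjusted p = 0.607) and for CCT7 -0.20 (SE 0.13, adjusted p = 0.754). The CCT2 probe sets gave -0.39 (dimmer, SE 0.14, adjusted p = 0.523) and -0.18 (brighter, SE 0.14, adjusted p = 0.801).

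None of the 9 passed the adjusted threshold in this comparison, as 0.00716% of all tested probe sets did, and 7 of 9 were lower at an unadjusted limma p under 0.05, against 4.07% of all tested probe sets. The brighter CCT2 probe set and CCT7 were the remaining members. The median difference of the members was -0.32 and that of all tested probe sets -0.01. Of all tested probe sets, 53.9% were lower in the CA cold phase. Without the CA 10-h array the number of members at an unadjusted p under 0.05 was 3, and without the CA 18-h array it was 5, with a median difference of -0.29 in the absence of the latter. Single arrays also moved the difference of 6 probe sets by over 1.5 times. Without CA 6 h it was -0.06 for the brighter CCT2 probe set, -0.16 for CCT6 and -0.05 for CCT7, and without CA 10 h it was -0.12 for CCT1 and -0.25 for CCT3. Without CA 18 h it was -0.19 for CCT4 and -0.31 for the brighter CCT2 probe set, which stood at -0.07 without CA 14 h, and without CA 22 h it was -0.30 for CCT7. CCT5, CCT8 and the dimmer CCT2 probe set moved less. CCT5 and CCT8 are among the transcripts that the study listed as temperature-driven from data that included these arrays, so their differences are not independent evidence of a direction.

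**Figure D3:**
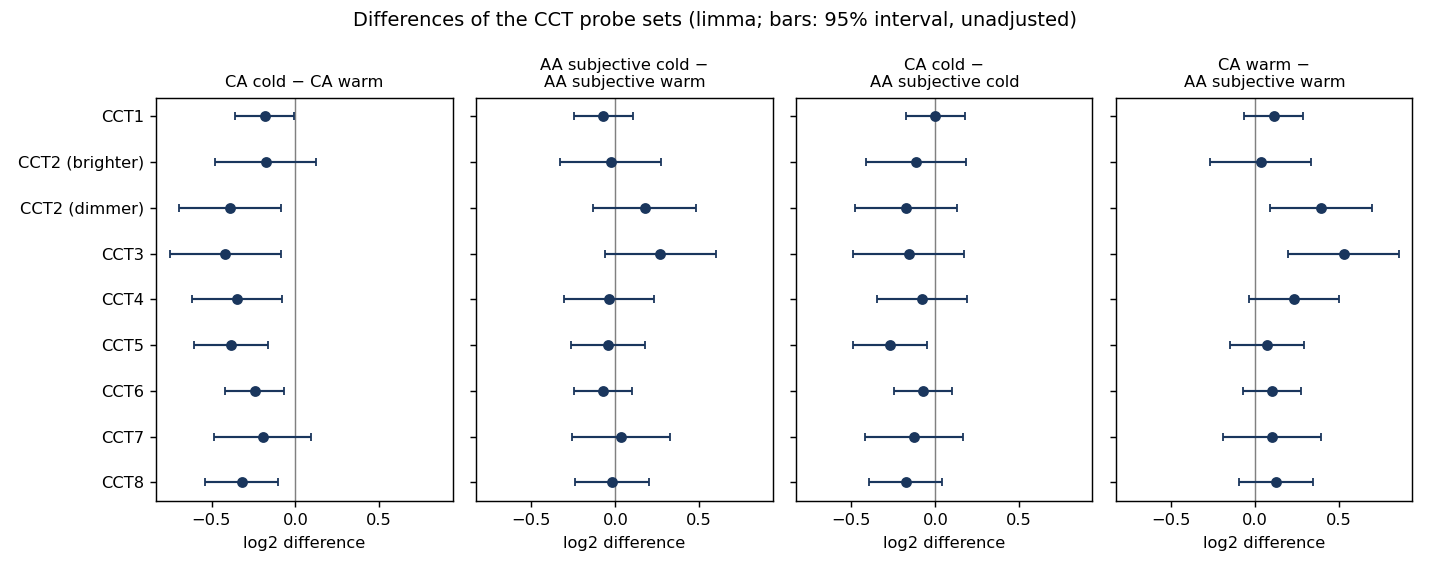
Differences of the 9 CCT probe sets in 4 comparisons, in log2 units. Points are limma estimates from the fit to 12 arrays, and bars are 95% intervals without adjustment for multiple tests. All 9 points lie below 0 in the CA cold minus CA warm panel, while the points of the AA panel lie on both sides of 0.

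At the same hours of the AA day, where the temperature did not step, differences between the subjective cold and warm phases ranged from -0.07 (CCT6) to 0.27 (CCT3). Their median was -0.03, against -0.02 over all tested probe sets. Of the 9 probe sets 6 were lower, against 58.7% of all tested probe sets. None of the 9 probe sets was past an unadjusted limma p of 0.05 in the lower direction, against 2.05% of all tested probe sets, and none passed after adjustment, as 0.0% of all tested probe sets did. The lowest adjusted p was 0.9997. For CCT8 the 95% interval of the difference, -0.24 to 0.20, still included differences of moderate size.

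The difference between the 2 days' phase contrasts was tested as an interaction. It was negative for all 9 probe sets, and for 48.7% of all tested probe sets. A negative value means a lower cold phase relative to the warm phase on the CA day than on the AA day. The median was -0.30 for the members and 0.01 over all tested probe sets. The estimates were -0.69 (SE 0.22) for CCT3, -0.56 (SE 0.20) for the dimmer CCT2 probe set and -0.34 (SE 0.15) for CCT5, and these 3 were below an unadjusted limma p of 0.05, against 3.44% of all tested probe sets in this direction. None of the 9 passed after adjustment (lowest adjusted p = 0.574), nor did any other probe set (0.0%). For the other 6 probe sets the 95% interval of the interaction included 0, from -0.36 to 0.14 for CCT1 for example, so a different response on the 2 days was not resolved for them.

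Comparing each CA phase with the same hours of the AA day shows where the days differed. These comparisons share their arrays with those above. At the cold hours, all 9 probe sets were lower at 18 °C than at 25 °C, but by a median of only -0.13. The estimate for CCT1 was -0.001 with an interval from -0.18 to 0.17. Of all tested probe sets 49.1% were lower at 18 °C, and the median over all of them was 0.002. One member, CCT5 at -0.27 (SE 0.10), was lower at an unadjusted limma p under 0.05, against 1.90% of all tested probe sets, and it was also the only one whose 3 CA cold arrays lay below all 3 AA subjective cold arrays, against 3.73%. No member and no other probe set (0.0%) passed after adjustment, with an adjusted p of 0.9999 for all 9.

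At the warm hours, when both days were at 25 °C, all 9 probe sets were higher on the CA day, by a median of 0.11. Of all tested probe sets 51.5% were lower on the CA day, and the median over all of them was -0.01. CCT3, at 0.53 (SE 0.15, adjusted p = 0.212), and the dimmer CCT2 probe set, at 0.39 (SE 0.14, adjusted p = 0.265), were past an unadjusted limma p of 0.05, against 6.39% of all tested probe sets in this direction. CCT3 and CCT4 had all 3 CA warm arrays above all 3 AA subjective warm arrays, as 8.37% of all tested probe sets did. None of the 9 passed after adjustment, against 0.0143% of all. Hence the larger of the 2 differences from the AA day was at the cold hours for CCT5 (-0.27) and CCT8 (-0.18). This was also so for CCT7 (-0.13) and the brighter CCT2 probe set (-0.12). The larger one was at the warm hours for CCT3 (0.53), the dimmer CCT2 probe set (0.39), CCT1 (0.11) and CCT6 (0.10). Leaving out a single array turned some of these orders. The warm-hour difference of CCT8 was 0.20 without CA 22 h, and that of the brighter CCT2 probe set 0.17 without CA 18 h. The cold-hour difference of CCT7 was 0.02 without CA 6 h, and that of CCT6 -0.12 without CA 2 h. For CCT4 the differences were -0.08 at the cold and 0.23 at the warm hours, and the latter was 0.08 without the CA 18-h array, so that the order of CCT4 rests on that array. The warm-hour difference without it was 0.05 for CCT1 (0.11 with it), 0.17 for the brighter CCT2 probe set (0.03), 0.13 for CCT5 (0.07) and 0.04 for CCT7 (0.10). Whether these orders differ between subunits was not tested.

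With the 3 arrays at 18 °C set against the average of the 3 groups at 25 °C, all 9 probe sets were again lower at 18 °C. Their median was -0.16. Of all tested probe sets 54.3% were lower, and the median over all of them was -0.01. CCT5 (-0.32, SE 0.08), CCT8 (-0.23, SE 0.08) and CCT6 (-0.15, SE 0.07) were below an unadjusted limma p of 0.05, against 2.78% of all tested probe sets, and none passed after adjustment (lowest adjusted p = 0.396), against 0.0286% of all. The difference of CCT6 was -0.07 without the CA 6-h array.

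The values at 6 times a day were also read as daily profiles through the 24-h spectral power, the share of a profile's variance at the 24-h Fourier component. On the CA day the dimmer CCT2 probe set had a power of 0.94 with a peak at 20.7 h, and its local p of 0.0167, from an exact permutation test over 60 orders of the times, is the smallest the 6 times can give. It was the 1 member under 0.05, as were 3.49% of all tested probe sets. The power of the others on the CA day ran from 0.82 (CCT6, local p = 0.0667) down to 0.16 (brighter CCT2 probe set, local p = 0.767) in the same permutation test. The fitted peaks of all 9 fell between 16.6 h and 20.9 h, within the warm phase. This largely restates their lower cold means on the same arrays. The share of all tested probe sets with a peak in these hours was not counted. On the AA day none of the 9 was under 0.05, against 3.08% of all tested probe sets. CCT6 lay at that limit, with a power of 0.83, a peak at 19.4 h and an exact permutation p of 0.05. Its fitted amplitude was 0.06, against 0.20 on the CA day. Peaks on that day were scattered over the day, from 2.56 h for CCT8, whose power was 0.02, to 23.7 h for CCT7. None of the 9 passed after adjustment on either day, and the lowest adjusted values of any probe set from the exact permutation tests were 0.903 (CA) and 0.914 (AA). A limma F test of the cosine and sine terms, which is not bounded by the number of orders, put 4 members under an unadjusted 0.05 on the CA day, against 5.76% of all tested probe sets. These were the dimmer CCT2 probe set, CCT4, CCT5 and CCT6, with adjusted limma p values of 0.540, 0.810, 0.816 and 0.849. On the AA day it put none there, against 5.57%, and no member passed after adjustment on either day.

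The design of the complex raises the question of whether its subunits move together from array to array. Over the 12 arrays the 28 pairs of subunits had a median Pearson r of 0.44, with a range from -0.13 to 0.84, and 25 pairs were positive. The pairs share the same 12 arrays and one normalization, so they are not independent of each other. After adjustment over the 28 pairs, 7 had a permutation p under 0.05.

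CCT1 with CCT4 had the highest r, 0.84 (adjusted permutation p = 0.0252), with rho = 0.58 (permutation p = 0.0527). CCT6 with CCT8 followed at r = 0.82 (adjusted permutation p = 0.0252) and rho = 0.73 (permutation p = 0.00878). CCT6 with CCT7 gave r = 0.77 and rho = 0.45, and CCT4 with CCT8 gave r = 0.73 and rho = 0.62. The remaining 3 pairs were CCT1 with CCT8 (r = 0.72, rho = 0.60), CCT5 with CCT8 (r = 0.71, rho = 0.41) and CCT2 with CCT5 (r = 0.71, rho = 0.62). These 5 pairs each had an adjusted permutation p of 0.04. CCT8 was thus in 4 of the 7 pairs and CCT3 in none. The lowest r among the 7 pairs was equalled or exceeded by 0.652% (CCT5) to 5.49% (CCT4) of all other probe sets in their r to a given subunit. The median r of a subunit to the other 7 was exceeded by 1.75% of all probe sets for CCT8, 2.69% for CCT6 and 7.45% for CCT5, but by 14.1% to 22.3% for the other 5 subunits. Without the CA 18-h array 6 pairs passed, and the median r was 0.47.

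When the 2 arrays farthest from the median of the first-named subunit were left out, CCT1 with CCT4 dropped to r = 0.35 (permutation p = 0.324, without CA 10 h and CA 18 h). CCT5 with CCT8 dropped to 0.11 (permutation p = 0.773, without CA 6 h and CA 10 h) and CCT6 with CCT7 to 0.39 (permutation p = 0.275, without CA 6 h and CA 14 h). The pairs that kept the most were CCT6 with CCT8 at 0.63 (permutation p = 0.0638) and CCT4 with CCT8 at 0.63 (permutation p = 0.0505). The values for CCT1 with CCT8 and CCT2 with CCT5 were 0.48 and 0.45. None of the 7 pairs was then under 0.05, so none held without its outermost arrays. Taking out the outermost arrays narrows the range and lowers their number, and other pairs of arrays were not left out for comparison.

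By ranks, none of the 28 pairs passed after adjustment, with a median rho of 0.35, and 6 had an unadjusted permutation p under 0.05. Within the CA day the median r was 0.53 and 25 of 28 pairs were positive. On the AA day the median was 0.13 and 17 of 28 were positive. No pair passed after adjustment on either day in exact permutation tests over 6 arrays, with 4 pairs under an unadjusted 0.05 on the CA day and 0 on the AA day. Whether the 2 days differ in these correlations was not tested. Pairs of other probe sets were not counted by ranks or within a day, so these counts have no background share beside them.

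Residuals from the 4 group means, which leave out the phase differences, had a median r of 0.28. A single pair passed, CCT6 with CCT7 at r = 0.86 (adjusted permutation p = 0.00644). CCT1 with CCT4 stood at 0.72 (adjusted permutation p = 0.0879) and CCT2 with CCT5 at 0.74 (adjusted permutation p = 0.0879), while CCT3 with CCT7 was at -0.58 and CCT3 with CCT6 at -0.49. In the matrix of correlations, CCT3 has negative residual values with 3 of the other subunits, and so has CCT4. The value of CCT3 with CCT4 is only -0.01.

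**Figure D4:**
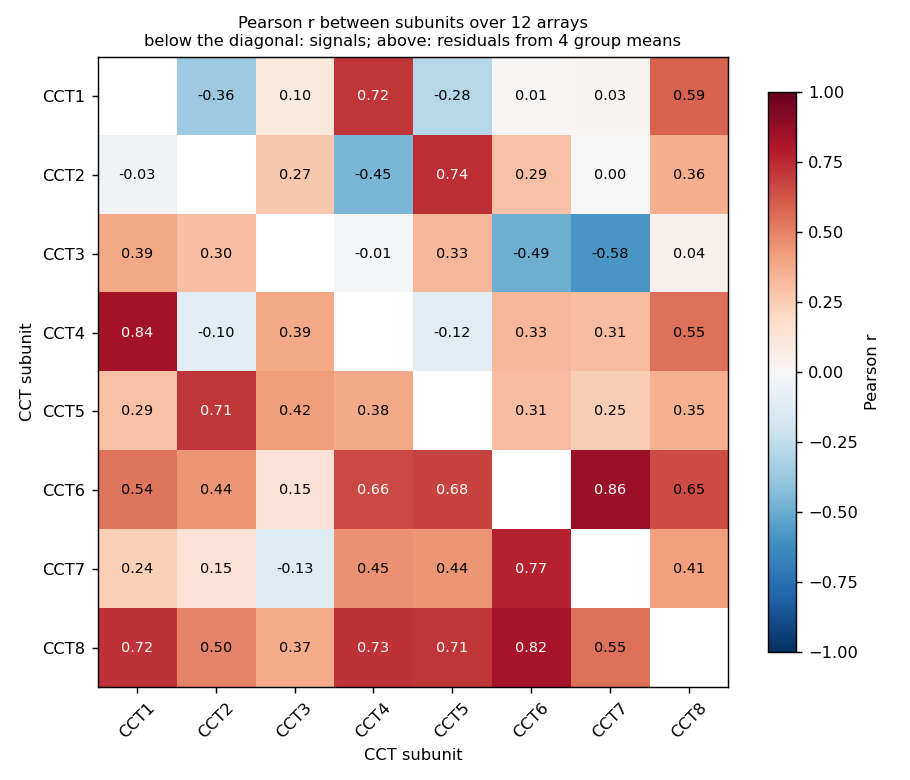
Pearson r between pairs of the 8 CCT subunits over 12 arrays, with the brighter probe set for CCT2. Below the diagonal are correlations of the signals, from -0.13 to 0.84, and above it correlations of the residuals from the 4 group means, from -0.58 to 0.86.

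With the dimmer probe set in place of the brighter one for CCT2, 8 of 28 pairs passed and the median r was 0.46. The dimmer probe set ran with CCT3 (r = 0.77) and CCT4 (r = 0.73), whereas the brighter one ran with CCT5 and had r = -0.10 with CCT4 and -0.03 with CCT1. Which of them follows the CCT2 transcript was not tested.

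How closely each subunit followed the rest of the complex was described by its r to the mean of the other 7, ranked among 13959 probe sets. CCT8 had r = 0.89 and rank 5, CCT6 had r = 0.80 and rank 46, and CCT5 had r = 0.75 and rank 141. CCT4 (r = 0.62, rank 383) and CCT1 (r = 0.59, rank 580) came next. CCT7 (r = 0.41, rank 1784), CCT2 (r = 0.39, rank 2509) and CCT3 (r = 0.36, rank 2636) followed the others least, and many unrelated probe sets ranked above them. For CCT8, 4 of the 7 other subunits were among the 5% of probe sets most like it, for CCT6 also 4, and for CCT3 none was among the closest 10%.

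The transcripts most like the mean of the 8 subunits, among 11160 probe sets that exceeded the 20th percentile on most arrays, were picked by their r over 12 arrays. They included RtcB, an RNA ligase (r = 0.89), CaBP1, a protein disulfide isomerase (0.89), HP1c, a heterochromatin protein 1 relative (0.88), Past1, an endocytic protein (0.86), and Tip60, a histone acetyltransferase (0.86). The others in the first 10 were CG13937 (0.91), CG33543 (0.89), CG9399 (0.88), CG5618 (0.87) and a probe set without a symbol (0.90). Like CCT, CaBP1 was low at CA 6 h (5.42) and CA 10 h (5.45) and high at CA 18 h (6.54), against 5.74 to 6.07 on the AA arrays. The most opposite were CG15449 (-0.87), the KH-domain RNA-binding gene qkr58E-1 (-0.87), scribbler (sbb, -0.85), CG5418 (-0.84) and a probe set without a symbol (-0.83). In all, 52 probe sets had r above 0.8 and 12 had r below -0.8. With 12 arrays and this many probe sets such values describe likeness only.

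Of the CCT clients, 5 of 7 tubulins, 3 of 4 WD-repeat genes and 2 of 3 actins were lower in the CA cold than in the CA warm phase. Of the co-factors, 2 of 3 phosducin-like genes, 3 of 7 prefoldin genes and 2 of 5 tubulin folding cofactors were lower. In the related Hsp60 and Hsp10 family 4 of 6 genes were lower. The share over all tested probe sets was 53.9%. One of the lower genes of that family, CG11267, differed by only -0.001. The mean signals of CG9920 (3.53), Hsp60B (3.61) and Hsp60C (3.15) lay below the percentile limit given above for the CCT probe sets. At 18 °C against all arrays at 25 °C, all 7 tubulins and all 4 WD-repeat genes were lower by their brightest probe set. Their medians were -0.06 and -0.07. The dimmer probe sets of betaTub60D and alphaTub84D were instead at 0.08 and 0.009. None passed after adjustment. Of all tested probe sets 54.3% were lower in this comparison, with a median of -0.01. The WD-repeat gene fzy (mean signal 2.25) differed by only -0.012 and the tubulin betaTub85D (2.94) by only -0.017. Both lay below the percentile limit given above for the CCT probe sets. Whether any list differs from CCT was not tested. No member of the 7 lists of co-factors, clients and related chaperonins passed the adjusted threshold in the CA cold against CA warm comparison. Of the 7 prefoldin genes, which encode subunits of prefoldin or of its relatives, 3 were lower and 4 higher, with a median of 0.09. The lower ones included merry-go-round (mgr) at -0.21 (SE 0.09, adjusted p = 0.607), whose r to the CCT mean was 0.61. Also lower was uri at -0.09 (adjusted p = 0.826), whose mean signal of 3.18 lay below the same percentile limit. Pfdn1 was at 0.22 (SE 0.14, adjusted p = 0.739) and Pfdn5 at 0.13 (SE 0.10, adjusted p = 0.780), the latter with r = -0.59 to the CCT mean.

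Of the 3 phosducin-like genes, viaf and CG4511 were each at -0.12 and CG7650 at 0.01. A dimmer probe set of viaf was at 0.12. The 5 tubulin folding cofactors, which assemble the tubulin dimer after CCT has released its subunits, had 2 lower and 3 higher members and a median of 0.03. Among them Tbca and Tbce, both at -0.10, had r = 0.68 and r = 0.57 to the CCT mean. The other 3 were opposite in sign, Tbcd at r = -0.55, Tbcb at -0.29 and Tbcc at -0.28, and the median r of the list was -0.28.

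Among CCT clients, 3 of 6 listed actin genes were on the array, with Act87E at -0.15, Act79B at -0.11 and Act88F at 0.11. Of 7 tubulin genes, 5 were lower and 2 higher, with a median of -0.10 and a range from -0.15 (alphaTub85E) to 0.17 (alphaTub84D). The dimmer probe set of betaTub60D was at 0.08, against -0.10 for its brighter one. That of alphaTub84D was at 0.17, like its brighter one. Several actin and tubulin probe sets carry the array's mark for sequences shared within a family, so their signals may mix paralogues. Of 4 WD-repeat genes 3 were lower, with the eye-specific G protein beta subunit Gbeta76C at -0.24 (SE 0.09, adjusted p = 0.578) and Gbeta5 at -0.22 (SE 0.13, adjusted p = 0.711). Gbeta76C was lowest at CA 6 h (8.86) and highest at CA 18 h (9.38), and its r to the CCT mean was 0.77.

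The mitochondrial chaperonin Hsp60A, a distant relative of CCT, had signals of 8.79, 8.34, 8.18, 8.71, 9.20 and 9.26 on the CA arrays, and 8.78, 8.62, 8.88, 8.79, 8.57 and 8.55 on the AA arrays. Its lowest values were at CA 6 h and CA 10 h, as for the CCT subunits. The CA cold minus CA warm difference was -0.62 (SE 0.16, adjusted p = 0.321), larger than that of any CCT probe set, and its r to the CCT mean was 0.80. The other 5 genes of the Hsp60 and Hsp10 family, including CG11267, which encodes a mitochondrial Hsp10, were between -0.03 and 0.04. Among them CG9920, Hsp60B and Hsp60C had mean signals below the percentile limit given above.

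**Figure D5:**
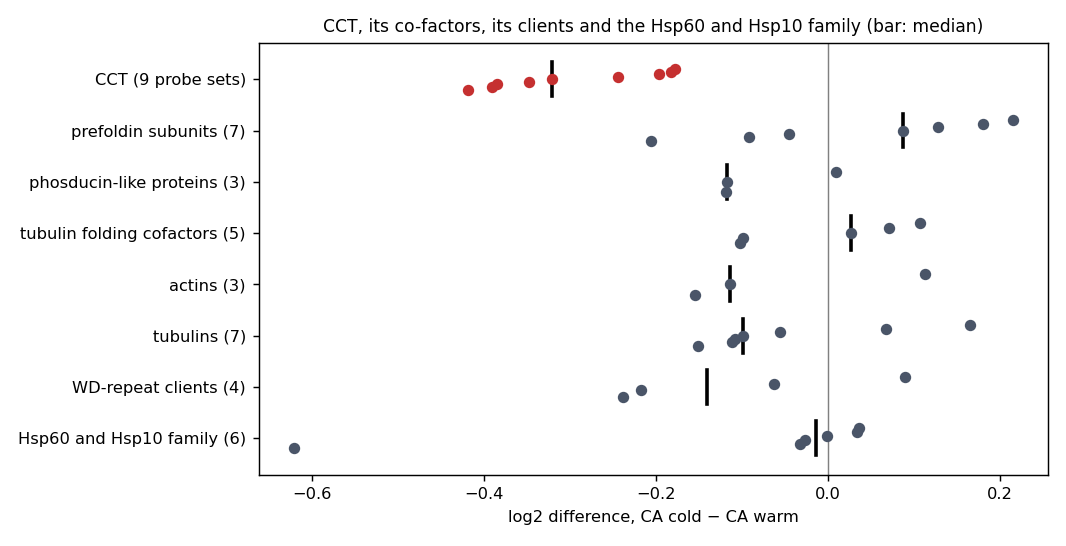
Log2 difference between the CA cold and CA warm phases for the 9 CCT probe sets and for 7 lists of co-factors, clients and related chaperonins, 1 point per gene (brightest probe set), with the median as a bar. The CCT points all lie between -0.42 and -0.18, the lists reach both sides of 0, and the lowest point of all is Hsp60A at -0.62.

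Markers of other tissues also differed in level between the CA phases. All 5 fat body markers were higher in the CA cold than in the CA warm phase, with mean signals of 12.86 to 12.95 against 12.63 to 12.82, although among them only apolpp (0.61, adjusted p = 0.297) was past an unadjusted limma p of 0.05. All 6 male accessory gland markers were also higher. Their mean signal, 3.05 to 3.32 against 2.996 to 3.102, lay below the 20th percentile of the arrays, while SP (mean 5.48) and Acp62F (4.19) lay above it. All 4 ovary markers were higher as well, with mean signals of 3.78 to 3.90 against 3.60 to 3.85. Among them bcd (mean 2.63) and osk (2.73) lay below the 20th percentile and grk (3.78) close to it. The brightest, otu (5.83), differed by only 0.002. For comparison, 53.9% of all tested probe sets were lower in the CA cold phase. Mean signals of 5 neuron markers were 5.696 to 5.801 in the CA cold and 5.72 to 6.06 in the CA warm phase, and those of 4 photoreceptor markers were 10.45 to 10.74 and 10.58 to 10.78, with 3 of 5 and 3 of 4 lower in the cold. Of the glia (4), muscle (4), testis (6) and gut (4) markers, 2, 1, 4 and 3 were higher in the CA cold phase. The mean signal of the testis markers, 2.84 to 2.98 against 2.81 to 2.92, lay below the 20th percentile of the arrays. Also past an unadjusted limma p of 0.05 were the muscle marker bent (bt) at 0.62 (adjusted p = 0.129), whose r to the CCT mean was -0.79 and whose dimmer probe set was at -0.02, and 4 markers that were lower in the cold. These were the neuron markers nSyb at -0.58 (adjusted p = 0.601) and Rop at -0.28 (adjusted p = 0.607), the glia marker Gs2 at -0.26 (adjusted p = 0.607), whose r to the CCT mean was 0.78, and the muscle marker Mlc2 at -0.21 (adjusted p = 0.533). No marker passed the adjusted threshold, and their part in the CCT differences was not tested.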

How the data were processed

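The authors deposited log2 signals made with RMA (background correction, quantile normalization and median polish), which the submitters' processing notes name without a version, and the genome build is not given in the sources used here. Of 14010 probe sets, 44 controls were set aside. Of the 13966 tested, 12443 carried 1 gene symbol, 327 several and 1196 none, and 12394 symbols were matched by Entrez identifier to RefSeq names. No normalization was added. A model with 4 group means was fitted over the 12 arrays (limma 3.58.1, R 4.3.3, 8 residual and 5.28 prior degrees of freedom), two-sided, with Benjamini-Hochberg adjustment over all tested probe sets. Correlations were made in Python 3.11.15 with scipy 1.17.1, with two-sided permutation tests (100000 resamples, or exact within a day). Spectral power was set against all 60 orders of the times. The scripts were checked on simulated data.

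The members, the partner and marker lists and the tests were chosen with earlier results of these data known. Genes were named by rule: all CCT probe sets, up to 4 genes of each partner list ranked by p between the CA phases, and the 10 probe sets most and 5 least like the CCT mean. CG11267, CG9920, betaTub85D, Tbcc and the single markers were named outside this rule, after their values were seen. Tbcb, Tbcd, Hsp60B, Hsp60C, betaTub60D and fzy rank within the rule but were also added after their values were seen. Alternatives were another quantile normalization, median centring, array weights, a mean-variance trend, bright probe sets alone, fewer arrays, the hour as a block, rank correlation and leaving out each array. Promoter and protein sequences were not analysed here.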

Additional observations from a re-analysis of the deposited data

How the results depend on the processing

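The CA cold minus CA warm difference and the interaction were negative for all 9 CCT probe sets under every alternative run (171 values each), and no member passed the adjusted threshold under any alternative in any of the 6 comparisons, with adjusted p from 0.134 upward in the CA comparison. Signs turned for 12 of 171 values in the AA comparison, 8 of 180 at the cold hours, 2 of 180 at the warm hours and 2 of 162 for the 18 °C arrays against all others. Without the 2- and 14-h arrays, the AA difference was 0.151 for the brighter CCT2 probe set, 0.0275 for CCT5, -0.117 for CCT7 and 0.003 for CCT8. With array weights that of CCT7 was -0.0233, and after another quantile normalization the cold-hour difference of CCT1 was 0.00865. Leaving out each array in turn, AA differences ranged from -0.126 to 0.0842 (brighter CCT2), -0.073 to 0.017 (CCT4), -0.0985 to 0.0435 (CCT5), -0.0828 to 0.101 (CCT7) and -0.0813 to 0.0297 (CCT8). Cold-hour differences ranged from -0.0448 to 0.0647 (CCT1), -0.273 to 0.00717 (CCT3), -0.178 to 0.0155 (CCT4), -0.125 to 0.0133 (CCT6) and -0.211 to 0.022 (CCT7). The warm-hour difference of the brighter CCT2 probe set ranged from -0.0743 to 0.168, and the 18 °C difference from -0.27 to 0.0105 (CCT3) and from -0.223 to 0.0101 (CCT7).

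The count of members at an unadjusted limma p under 0.05 ranged over single left-out arrays from 3 to 7 in the CA comparison, 2 to 5 for the interaction, 0 to 2 at the cold hours, 1 to 3 at the warm hours and 1 to 4 for the 18 °C arrays. The CA count was 3 without CA 10 h, the cold-hour count was 0 without CA 6 h, CA 10 h or AA 2 h and 2 without CA 2 h, and the warm-hour count was 1 without CA 18 h or AA 18 h. The count for the 18 °C arrays was 1 without CA 6 h and the interaction count was 5 without CA 2 h. Without the 2- and 14-h arrays it was 2 at the cold hours and 5 for the 18 °C arrays. The median difference ranged from -0.43 to -0.26 in the CA comparison and from -0.41 to -0.25 for the interaction, each lowest without CA 2 h. The count of members with a minimum at 18 °C ranged from 5 to 9. Of 28 pairs of subunits, 7 passed in the full set, 2 to 7 with an array left out, 1 for residuals, 0 by Spearman's rho, and 0 within the CA or the AA day, where the median r was 0.13 for AA. The cause of these shifts was not tested.

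Arrays of the same hour on both days were not alike beyond their groups (residual correlations from -0.23 to 0.25), so hours were not treated as pairs. With the hour as a replicate block the counts of the interaction, the cold hours and the warm hours were 3, 1 and 2, as without it. Array number limits the precision of all values.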
